A study of Saccharomyces cerevisiae BY4741 with 6 samples.

Results

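The early response of budding yeast to a change of sugar was read from 4 of the 6 NET-seq libraries of this series, the pair taken after 15 min in galactose and the pair taken in glucose. The members were chosen by condition alone: every library labelled 15 min in galactose was set against every library labelled glucose, over the 5186 of 5219 genes whose mean count was at least 10. NET-seq (native elongating transcript sequencing) sequences the nascent RNA held by RNA polymerase II, here pulled down through a 3xFLAG tag on its subunit Rpb3, so a count places a transcribing polymerase on a gene rather than a finished mRNA in the cell. Both strains were BY4741 with RPB3-3xFLAG-His3MX6, and the deletion carried spp1::KanMX6 as well. SPP1 encodes a subunit of COMPASS, the complex that methylates lysine 4 of histone H3.

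The groups were, in galactose, the SPP1 deletion and the wild type 15 min after transfer to YPG with 2% galactose, and, in glucose, the same strains at mid-log in YPD with 2% glucose. Galactose cultures were spun down and resuspended in prewarmed medium, whereas glucose cultures went straight onto the filter, so the new sugar and this handling cannot be told apart. There was 1 library per strain and condition, the strains stood in for replicates with genotype as a block, and nothing says that the libraries came from repeated cultures. The p-values therefore measure the spread left between these libraries, that is, how far the strains disagree in their changes. They do not measure a spread between repeated cultures.

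As background, glucose is the preferred sugar of budding yeast. While it lasts, cells ferment, grow fast and keep genes for respiration and for other sugars repressed, through the repressor Mig1 and the protein kinase A pathway among others. When glucose is withdrawn the kinase Snf1 becomes active, the repressed genes open and the costly programme of ribosome and protein production is cut back, while galactose itself is used only once Gal4 has switched on the galactose genes. Genes of the ribosome and of general stress are the best known part of that switch, and the account here is mainly of the other genes.

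Library totals were 1681514 and 1270361 counts at 15 min in the deletion and the wild type, against 4167249 and 2528759 counts in glucose. A single count therefore equalled 0.633 and 0.820 CPM at 15 min and 0.245 and 0.390 CPM in glucose, where CPM is the count scaled to the library total times its TMM factor, and low values at 15 min carry the larger counting error. SPP1 had 0 and 69 counts at 15 min in the deletion and the wild type, against 1 and 324 counts in glucose, so its counts and the strain labels do not conflict. On chromosome XI, from the MTC2 gene rightwards, the median log2 level per length was lower for genes on W than for genes on C, a difference of -1.49, against 0.049 on the rest of the chromosome and -0.028 on all others. The median change there was 0.45 for 66 W-strand and 0.055 for 81 C-strand genes, and values of these 147 genes are uncertain. A further 102 tested genes share part of their span with another gene, and how reads were assigned to strands or to near-identical genes is not given in the sources used here.

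Relative levels of transcription changed across most of the genome within 15 min. Levels are scaled within each library, so whether total transcription rose or fell cannot be read from them. Of 5186 genes tested, 3900 passed (75.2%), with 1926 higher (37.1%) and 1974 lower (38.1%) at 15 min than in glucose, by the quasi-likelihood test of edgeR at a Benjamini-Hochberg adjusted p of 0.05; "rose" and "fell" are used below of genes that passed this test. At least 4-fold changes were reached by 468 genes that rose (9.02%) and 650 that fell (12.5%), and at least 16-fold changes by 101 (1.95%) and 195 (3.76%). Changes are fitted log2 changes of 15 min over glucose. Values after ± are standard errors worked back from each change and the F statistic of its test, and are approximate. The median change over all genes was -0.013 on the log2 scale, or -0.081 when scaled by library totals alone. The median size of a change was 0.87. With 412 genes of the ribosome, of RNA polymerases I and III, of general stress and of storage sugars set aside, 1851 of 4774 genes rose (38.8%) and 1645 fell (34.5%), and at least 4-fold rises and falls were then about as many, 408 (8.55%) and 369 (7.73%). Among 2917 genes in none of the 65 lists examined, 1211 rose (41.5%) and 896 fell (30.7%). Counts of rises and falls given for lists below are to be read beside the shares over all genes, 37.1% and 38.1%. They cover only members that were in the count data and passed the filter on mean count. A gene silent in glucose could pass that filter only through its galactose libraries.

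The strains moved alike. Of the 3900 genes that passed, 3896 had the same sign in both strains, and over the 5186 genes the change in the deletion and the change in the wild type had a Pearson correlation of 0.978, given as a description since genes are not replicates. The median size of the difference between the strains was 0.22 log2 units. At least 2-fold rises were seen in 19.9% of genes in the deletion and 21.5% in the wild type, and at least 2-fold falls in 24% and 25%.

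**Figure D1:**
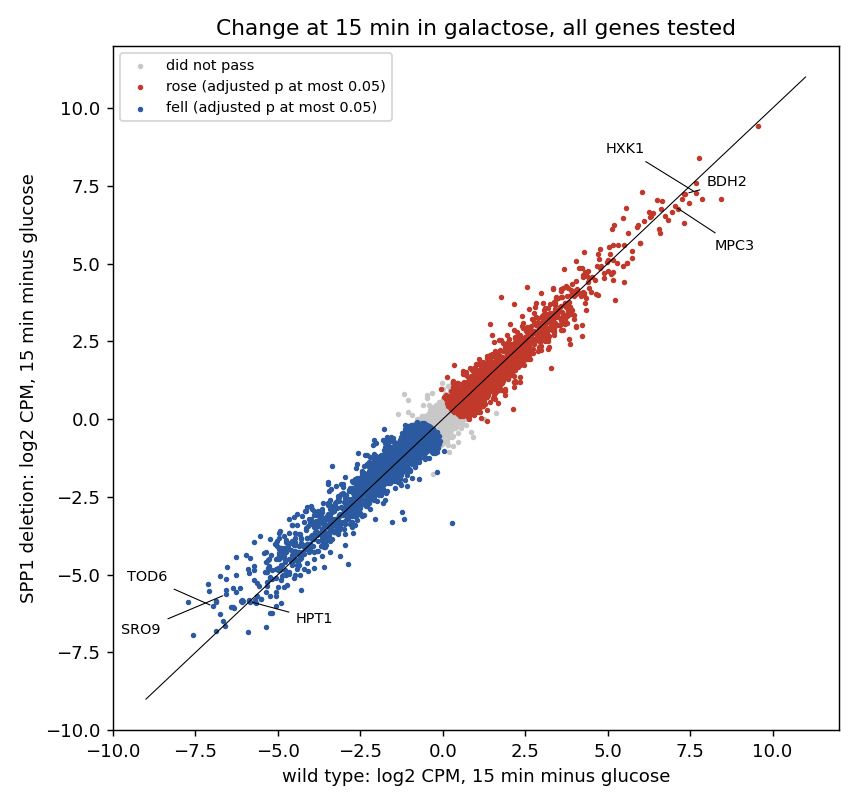
Change in log2 CPM from glucose to 15 min in galactose in the SPP1 deletion (vertical axis) against the same change in the wild type (horizontal axis), 1 point per gene tested, red for 1926 genes that rose, blue for 1974 that fell and grey for the rest, with the line of equality. Points lie along the line over a range of more than 7 log2 units in each direction, and 6 genes described in the text are named.

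Ribosome genes lost a larger share of the counts than stress genes gained. The 337 genes of ribosome lists held 3.50% and 3.57% of counts at 15 min in the deletion and the wild type, against 21.3% and 22% in glucose, and the 77 stress and storage genes held 7.28% and 7.10% of counts at 15 min in the deletion and the wild type, against 0.491% and 0.472% in glucose. Genes of respiration and of the tricarboxylic acid cycle, 89 in all, held 4.51% and 5.19% of counts at 15 min in the deletion and the wild type, against 1.13% and 1.24% in glucose. The order of these 3 groups in the polymerase census was thus turned round, with ribosome genes the largest in glucose and the smallest at 15 min.

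Smaller parts of the census moved as well. The 58 genes of nucleotide synthesis held 0.702% and 0.668% of counts at 15 min in the deletion and the wild type, against 2.11% and 2.16% in glucose. Genes for translation factors and tRNA enzymes held 1.99% and 1.73% of counts at 15 min in the deletion and the wild type, against 4.21% and 4.10% in glucose. Glycolysis held 5.14% and 4.95% of counts at 15 min in the deletion and the wild type, against 3.68% and 3.34% in glucose, a mean log2 ratio of 0.52. This ratio was 1.36 when the 10 most counted genes, chosen library by library, were left out of both the list and the total. For all of these groups the strains lay close together and the conditions apart. Outside the set-aside lists, the single genes that gained most were SPO24, a small protein of sporulation, with 8378 and 7252 CPM at 15 min in the deletion and the wild type, against 801 and 479 CPM in glucose, and HXK1, described below. PDC1, the main pyruvate decarboxylase of fermentation, lost more of the counts than any gene but RPS14B, with 3301 and 2763 CPM at 15 min in the deletion and the wild type, against 6202 and 4744 CPM in glucose, and its call was lost in 3 of the 4 fits that left out 1 library.

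**Figure D2:**
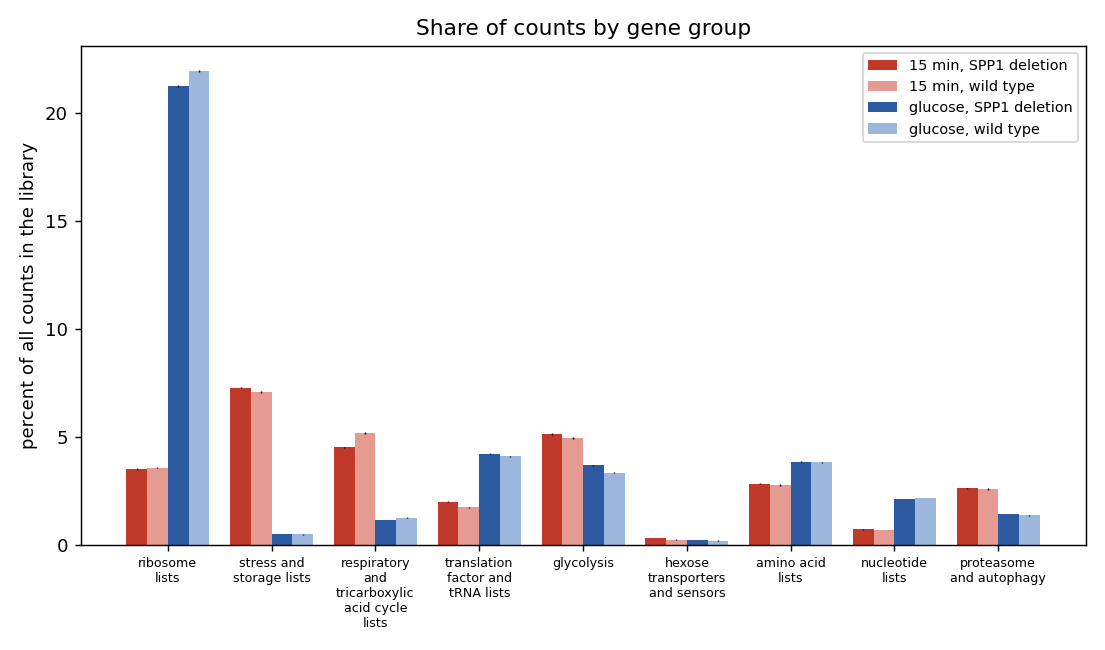
Percent of all counts in a library that fell on each of 9 gene groups, with bars for the 15 min libraries (red) left of the glucose libraries (blue), the darker bar of each colour being the SPP1 deletion. Bars start at 0 and error bars are exact 95% binomial intervals for counting error only; the ribosome bars stand at 3.50% and 3.57% at 15 min and at 21.3% and 22% in glucose.

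The genes with the largest rises outside the set-aside lists included genes for the entry of sugar into metabolism and for mitochondrial enzymes and carriers. HXK1 (YFR053C, chromosome VI, 253592 to 255049), the hexokinase that is silent in glucose-grown cells, had 5709.5 and 5171 CPM at 15 min in the deletion and the wild type, against 35.8 and 24.2 CPM in glucose, a log2 change of 7.49 ± 0.32 (edgeR adjusted p = 1.27e-11). MPC3, the subunit that the mitochondrial pyruvate carrier uses in respiring cells, had 3077 and 2263 CPM at 15 min in the deletion and the wild type, against 25.7 and 16.4 CPM in glucose. ALD4, the mitochondrial aldehyde dehydrogenase that makes acetate, had 2799 and 2749 CPM at 15 min in the deletion and the wild type, against 29.4 and 33.5 CPM in glucose. In each case the levels at 15 min lay far above those in glucose in both strains, with no overlap.

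The others of this set of 15 were of several kinds. BDH2, a paralog of butanediol dehydrogenase, rose by 7.48 ± 0.29, and SOL4, a 6-phosphogluconolactonase of the pentose phosphate pathway, by 7.07 ± 0.21. GLK1, glucokinase, rose by 6.62 ± 0.28 and shares its span with another gene. GID11 (YLR149C, chromosome XII, 437631 to 439823), a substrate receptor of the GID ubiquitin ligase, had 738 and 721 CPM at 15 min in the deletion and the wild type, against 8.33 and 3.51 CPM in glucose. MRK1, a kinase of the GSK-3 family, had 793 and 893 CPM at 15 min in the deletion and the wild type, against 7.60 and 7.40 CPM in glucose. ATO2, of the family of ammonium and acetate transporters, had 806 and 736 CPM at 15 min in the deletion and the wild type, against 7.84 and 8.57 CPM in glucose. These 3 genes were under 10 CPM in every glucose library and above 700 CPM in every 15 min library. SPG4, known from survival in stationary phase, ISF1, known from respiratory growth, AIM17, EGO4, YMR196W and YMR206W completed the set, with log2 changes between 6.35 and 7.22.

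Several of the largest falls ended at a handful of reads. TOD6 (YBL054W, chromosome II, 117589 to 119166), a repressor of ribosome biogenesis genes, had 4 and 1 counts at 15 min in the deletion and the wild type, against 926 and 572 counts in glucose. Its log2 change in the wild type was -6.96 with a prior count of 2. The exact 95% counting interval there, taken without that prior, was -13.39 to -5.60. YNL162W-A, an uncharacterized gene, had 3 and 0 counts at 15 min in the deletion and the wild type, against 537 and 339 counts in glucose, and was at least 53.7-fold lower in the wild type against a floor of 3 counts. SRO9 (YCL037C, chromosome III, 57374 to 58678), an RNA-binding protein of the La family that associates with ribosomes, had 6.96 and 3.28 CPM at 15 min in the deletion and the wild type, against 393 and 404 CPM in glucose. GFD2, its divergent neighbour, had 4 and 2 counts at 15 min in the deletion and the wild type, against 932 and 550 counts in glucose. All 4 genes were transcribed at moderate levels in glucose and nearly emptied at 15 min in both strains.

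Purine and pyrimidine genes stood among the deepest falls. HPT1, the hypoxanthine-guanine phosphoribosyltransferase that salvages bases, had 22.8 and 23.8 CPM at 15 min in the deletion and the wild type, against 1377 and 1449 CPM in glucose, a log2 change of -5.92 ± 0.22 (edgeR adjusted p = 4.23e-12). URA7, the main CTP synthase, had 8.86 and 13.9 CPM at 15 min in the deletion and the wild type, against 735 and 535 CPM in glucose. Both strains lost nearly all of the signal. The other genes of the set of 15 were TRM11, a tRNA methyltransferase subunit (-5.66 ± 0.21), TRF5, a poly(A) polymerase of nuclear RNA surveillance (-5.58 ± 0.34), PRP43, a helicase shared by splicing and ribosome assembly (-5.50 ± 0.28), AQR1, an exporter of amino acids and short organic acids (-6.11 ± 0.23), RFU1, an inhibitor of ubiquitin removal (-6.46 ± 0.22), SFG1, a factor of filamentous growth (-5.71 ± 0.28), PHM6, named from phosphate metabolism (-6.05 ± 0.27), ATC1 (-5.90 ± 0.26) and UPA1 (-5.67 ± 0.25), all as fitted log2 changes with their standard errors.

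**Figure D3:**
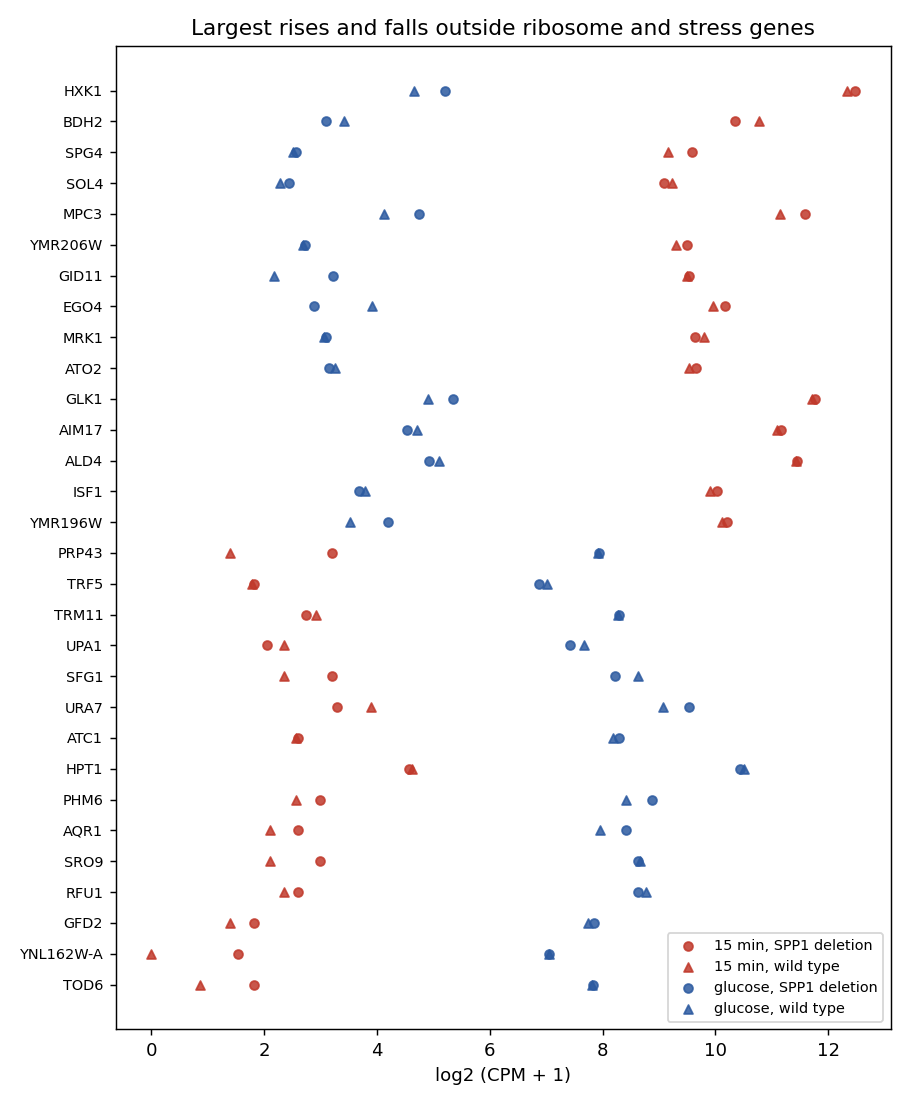
Level of the 15 genes with the largest rises (top, from HXK1) and the 15 with the largest falls (bottom, to TOD6) outside the set-aside lists, as log2 of CPM plus 1, in the 15 min libraries (red) and the glucose libraries (blue), circles for the SPP1 deletion and triangles for the wild type. For each of the 30 genes the red and blue symbols do not overlap, and those of the strains lie close together.

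Galactose genes were at low levels at 15 min. GAL2, the galactose permease, rose with 35.4 and 18.8 CPM at 15 min in the deletion and the wild type, against 2.45 and 1.95 CPM in glucose, and GAL7, the galactose-1-phosphate uridylyltransferase, rose with 28.5 and 42.6 CPM at 15 min in the deletion and the wild type, against 8.33 and 10.5 CPM in glucose. GAL1, galactokinase, had 12 and 13.9 CPM at 15 min in the deletion and the wild type, against 5.64 and 9.74 CPM in glucose and did not pass (log2 change 0.80 ± 0.36, edgeR adjusted p = 0.0559). In the list of Gal4 targets and galactose regulators, 6 of 10 genes rose and 2 fell, and larger rises than that of GAL2 came from MTH1, a corepressor of hexose transporter genes (5.32 ± 0.18), and GCY1, a glycerol dehydrogenase under Gal4 (4.05 ± 0.18). Of 19 listed genes for other sugars only 11 were tested, and all 11 rose. Their median log2 change was 2.97, the value of GRE3, which is also in the general stress list. MAL33, a maltose activator, had 2372 and 2163 CPM at 15 min in the deletion and the wild type, against 72.8 and 44.0 CPM in glucose. SUC2, invertase, had 927 and 593 CPM at 15 min in the deletion and the wild type, against 47.1 and 43.6 CPM in glucose. GUT2, the mitochondrial glycerol-3-phosphate dehydrogenase, rose by 4.30 ± 0.20. Neither maltose, sucrose nor glycerol is named in the description of the galactose medium.

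Glycolysis genes moved in both directions. Of 23 genes, 10 rose, 4 fell and 9 did not pass, with a median log2 change of 0.42. Next to HXK1 and GLK1, the rises were led by TDH1, a glyceraldehyde-3-phosphate dehydrogenase, with 2716 and 2375 CPM at 15 min in the deletion and the wild type, against 67.2 and 89.2 CPM in glucose, and EMI2, a paralog of glucokinase, with 4063 and 3114 CPM at 15 min in the deletion and the wild type, against 134 and 111 CPM in glucose. PFK1, a subunit of phosphofructokinase, fell by 0.71 on the log2 scale, and PFK27, which makes the activator of that enzyme, changed by -1.40 ± 0.16. TDH3, the main glyceraldehyde-3-phosphate dehydrogenase, did not pass (log2 change -0.20). Sugar transport was split among the 10 tested of 18 listed transporter and sensor genes. Of these, 4 rose, among them HXT4 (4.94 ± 0.20), HXT2 (2.71 ± 0.18) and the sensor SNF3 (2.11 ± 0.18). A further 4 fell, led by HXT1, the low-affinity transporter of high glucose (-2.85 ± 0.18).

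Around glycolysis, gluconeogenesis and the glyoxylate genes rose, 12 of 13 tested (20 listed) with a median log2 change of 2.22. ACH1, an acetyl-CoA to succinate CoA transferase of the mitochondrion, had 811 and 1040.0 CPM at 15 min in the deletion and the wild type, against 33.6 and 47.5 CPM in glucose, and PYC1, a pyruvate carboxylase, had 1113 and 1063 CPM at 15 min in the deletion and the wild type, against 109 and 128 CPM in glucose. MAE1, the malic enzyme, fell (-4.0 ± 0.17), and lies in the uncertain region of chromosome XI. The pentose phosphate list went the other way, with 11 of 15 falling (median -1.01). RKI1, ribose-5-phosphate isomerase, had 15.2 and 12.3 CPM at 15 min in the deletion and the wild type, against 452 and 439.5 CPM in glucose. PRS3, which makes the activated ribose used for nucleotides, fell by 3.75 log2 units. Its relatives PRS1, PRS2, PRS4 and PRS5, counted in this list as well, also fell. The 3 members of the list that rose were SOL4, GND2 (3.22 ± 0.32) and ZWF1, glucose-6-phosphate dehydrogenase (2.31). Fermentation genes had no common direction, with 5 of 15 higher and 5 lower.

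Nuclear genes of respiration rose nearly as a whole. All 36 tested genes of the respiratory chain and the ATP synthase rose, with a median log2 change of 2.44, and 18 of 20 genes of the tricarboxylic acid cycle rose, with a median of 2.22. SDH1, the flavoprotein of succinate dehydrogenase, had 606 and 652 CPM at 15 min in the deletion and the wild type, against 22.6 and 17.5 CPM in glucose. COX5B, the form of a cytochrome oxidase subunit known from low oxygen, had 904 and 962 CPM at 15 min in the deletion and the wild type, against 50.7 and 58.1 CPM in glucose. INH1, the inhibitor that stops the ATP synthase from running backwards, had 823 and 973 CPM at 15 min in the deletion and the wild type, against 33.8 and 41.3 CPM in glucose. Levels at 15 min were above those in glucose in both strains for each of these. CYT1, cytochrome c1, rose by 3.90 ± 0.22, NDE2, an external NADH dehydrogenase, by 4.22 ± 0.19, and SDH4 and SDH6, of the membrane anchor and the assembly of succinate dehydrogenase, by 3.71 ± 0.18 and 3.72 ± 0.16.

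Assembly factors of cytochrome oxidase and coenzyme Q enzymes rose in 27 of 33 cases (median 1.07), led by COX20 (2.81 ± 0.17), and the single fall was COQ8 (-0.98 ± 0.17). Mitochondrial ribosome genes rose in 45 of 67 cases but by little (median 0.42). Import and carrier genes were mixed, with 22 of 55 higher and 13 lower, against 37.1% and 38.1% over all genes. PIC2, a carrier of phosphate and copper, had 1001 and 1093 CPM at 15 min in the deletion and the wild type, against 53.4 and 87.3 CPM in glucose, whereas FLX1, the transporter linked to flavin nucleotides, had 119.6 and 112 CPM at 15 min in the deletion and the wild type, against 534 and 579 CPM in glucose. In the list of peroxisomes and fatty acid oxidation, 20 of 36 rose, with ECI1, an isomerase of fatty acid oxidation, at 3.08 ± 0.22 and FAA1, an acyl-CoA synthetase, at 2.73 ± 0.16, and PEX21 fell (-3.46 ± 0.29).

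Genes that read glucose changed as well. Of 23 regulators of glucose repression, 15 rose and 4 fell. SIP4 (4.29 ± 0.39) and ADR1 (3.79 ± 0.19), activators of genes for other carbon sources, rose, and so did MIG1, the glucose repressor, with 669 and 615 CPM at 15 min in the deletion and the wild type, against 119.9 and 111 CPM in glucose. In the Ras and protein kinase A list 12 of 19 rose and 5 fell. TPK2, a catalytic subunit of protein kinase A, had 382 and 387 CPM at 15 min in the deletion and the wild type, against 51.5 and 46.4 CPM in glucose. TPK3, another, had 25.3 and 19.7 CPM at 15 min in the deletion and the wild type, against 144 and 159 CPM in glucose. TPK2 was thus higher and TPK3 lower at 15 min in both strains. Of 41 genes of TOR and nutrient kinases, 21 rose and 10 fell, and beside TOD6 the deepest fall was that of IFH1, a coactivator of ribosomal protein genes, with 8.23 and 6.56 CPM at 15 min in the deletion and the wild type, against 81.4 and 90.8 CPM in glucose. CRF1, its corepressor counterpart, rose by 1.67 ± 0.29.

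**Figure D4:**
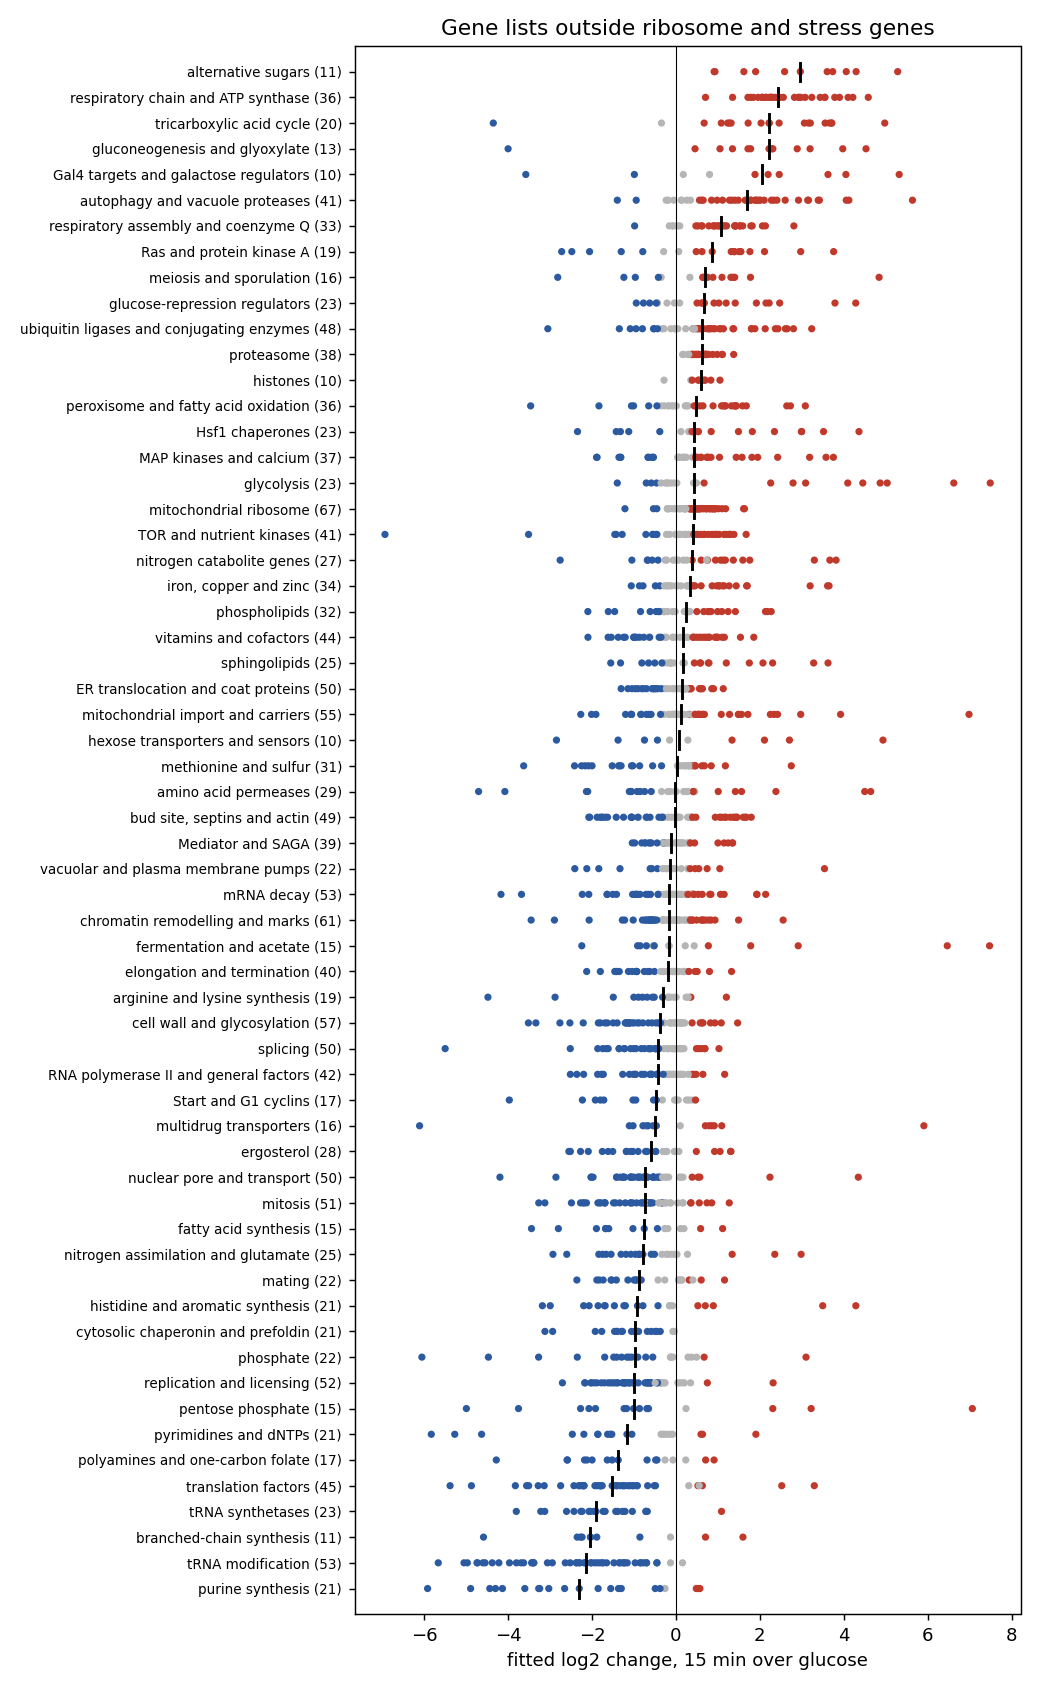
Fitted log2 change (15 min over glucose, horizontal axis) of every tested member of 60 gene lists other than the ribosome and stress lists, ordered by their median (black tick), with the number tested in brackets. Red points rose, blue points fell and grey points did not pass. Some members, such as HSP104, HSP30 and GRE3, are also in the general stress list. Alternative sugars (median 2.97) and the respiratory chain (2.44) stand at the top, tRNA modification (-2.15) and purine synthesis (-2.30) at the bottom.

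Genes for tRNA and for translation fell. Of 53 genes that modify or process tRNA, 51 fell and 0 rose, with a median log2 change of -2.15. TRM1, a tRNA methyltransferase, had 6.33 and 6.56 CPM at 15 min in the deletion and the wild type, against 217 and 188 CPM in glucose. NCS2, of the thiolation of tRNA wobble uridine, had 5.06 and 5.74 CPM at 15 min in the deletion and the wild type, against 189 and 169 CPM in glucose. DUS1, a dihydrouridine synthase, changed by -4.74 ± 0.28. Of 23 tRNA synthetase genes, 22 fell, with a median of -1.90. KRS1, lysyl-tRNA synthetase, had 82.3 and 68.0 CPM at 15 min in the deletion and the wild type, against 646 and 675 CPM in glucose. CRS1, cysteinyl-tRNA synthetase, fell with 35.4 and 20.5 CPM at 15 min in the deletion and the wild type, against 267 and 268 CPM in glucose. The single synthetase gene that rose was GRS2, a second glycyl-tRNA synthetase, with 115 and 163 CPM at 15 min in the deletion and the wild type, against 71.6 and 54.9 CPM in glucose.

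Translation factors fell in 39 of 45 cases (median -1.52). TIF4631, a form of the cap-binding scaffold eIF4G, had 31.0 and 45.1 CPM at 15 min in the deletion and the wild type, against 531 and 531 CPM in glucose. RLI1, the ribosome recycling factor, had 29.7 and 21.3 CPM at 15 min in the deletion and the wild type, against 298 and 316 CPM in glucose. GCD10, listed with the factors but known as a tRNA methyltransferase subunit, fell by 4.87 log2 units. DBP1, an RNA helicase related to Ded1, rose against the list, with 111 and 148 CPM at 15 min in the deletion and the wild type, against 12.5 and 13.6 CPM in glucose. The chaperones that act on new chains also fell, 19 of 21 (median -0.97), with SSB1 and SSB2, the Hsp70 pair bound to the ribosome, at -3.12 ± 0.23 and -2.94 ± 0.22; the split of reads between these near-identical copies is uncertain.

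The chaperones of the heat shock factor Hsf1 did not follow them. Of 23, 14 rose and 5 fell. SSA4, an inducible Hsp70, had 551 and 351 CPM at 15 min in the deletion and the wild type, against 18.4 and 26.5 CPM in glucose. HSP104, the disaggregase, had 1006 and 856 CPM at 15 min in the deletion and the wild type, against 122 and 110.3 CPM in glucose. YDJ1, the main Hsp40 co-chaperone of the cytosol, fell, with 142 and 96.7 CPM at 15 min in the deletion and the wild type, against 579.7 and 638 CPM in glucose. Both directions therefore occurred within this list, and fewer rises were called when either deletion library was left out. HSP104, HSP78 and AHA1 of the list are also in the general stress list that was set aside.

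Genes of protein breakdown rose. The proteasome rose in 33 of 38 cases and fell in 0, with small changes (median 0.62). ECM29, a proteasome-associated factor, had the largest, with 218 and 225 CPM at 15 min in the deletion and the wild type, against 81.1 and 89.6 CPM in glucose. Autophagy and vacuolar protease genes rose in 32 of 41 cases, with a median of 1.69. ATG39, the receptor for autophagy of the nuclear envelope, had 365 and 359.8 CPM at 15 min in the deletion and the wild type, against 6.62 and 8.18 CPM in glucose. PBI2, an inhibitor of a vacuolar protease, had 794 and 793 CPM at 15 min in the deletion and the wild type, against 48.3 and 47.1 CPM in glucose. ATG36, the receptor for autophagy of peroxisomes, rose by 3.42 ± 0.19, and ATG34, a receptor for vacuolar enzymes, by 4.12 ± 0.21. The falls were ATG5, of the conjugation machinery (-1.40 ± 0.14), and ATG23 (-0.95 ± 0.16).

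Of 48 ubiquitin ligase and conjugating enzyme genes, 30 rose and 8 fell. The GID ligase, which marks enzymes of gluconeogenesis for breakdown when glucose returns, supplied the leading rises beside GID11 above. UBC8, its conjugating enzyme, had 487 and 515 CPM at 15 min in the deletion and the wild type, against 59.6 and 47.5 CPM in glucose. GID8 and RMD5, subunits of its core, rose by 2.80 ± 0.14 and 2.65 ± 0.14. UBC11, a conjugating enzyme, fell, with 3 and 1 counts at 15 min in the deletion and the wild type, against 46 and 35 counts in glucose, and its log2 change was -3.02 (exact 95% counting interval -9.40 to -1.48) in the wild type.

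Amino acid synthesis fell in parts. Branched-chain genes fell in 8 of 11 cases (median -2.04). LEU9, a minor isopropylmalate synthase, had 16.5 and 10.7 CPM at 15 min in the deletion and the wild type, against 312 and 363 CPM in glucose. ILV2, acetolactate synthase, had 87.3 and 61.5 CPM at 15 min in the deletion and the wild type, against 360.3 and 407 CPM in glucose, and ILV1 and ILV3, of the same pathway, fell by 2.28 and 2.24 log2 units. BAT2, the cytosolic branched-chain aminotransferase, rose, with 561 and 643 CPM at 15 min in the deletion and the wild type, against 172 and 226 CPM in glucose. Histidine and aromatic genes fell in 13 of 21 cases, including ARO4, which opens the aromatic pathway (-3.0 ± 0.15), and HIS6 (-3.18 ± 0.29). ARO9 and ARO10, which break aromatic amino acids down, rose instead. ARO9, an aminotransferase, had 571 and 637 CPM at 15 min in the deletion and the wild type, against 50.7 and 56.1 CPM in glucose, and ARO10, a decarboxylase, had 431 and 634 CPM at 15 min in the deletion and the wild type, against 18.9 and 37.4 CPM in glucose.

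Nitrogen genes moved in both directions. In the assimilation list 15 of 25 fell, with PRO1, the first step of proline synthesis, at -2.93 ± 0.16. GDH2, which breaks glutamate down, had 427 and 404 CPM at 15 min in the deletion and the wild type, against 45.3 and 60.8 CPM in glucose, and ALT1, an alanine aminotransferase, rose by 2.36 ± 0.16. GDH1, a glutamate dehydrogenase of synthesis, rose as well (1.34), whereas GCV1 and GCV2, which break glycine down, fell (-1.19 and -1.31). PUT1, proline oxidase of the mitochondrion, had 516 and 443 CPM at 15 min in the deletion and the wild type, against 27.5 and 42.5 CPM in glucose. PUT4, a proline permease, rose by 3.67 ± 0.32 and CAR2, ornithine aminotransferase of arginine breakdown, by 3.30 ± 0.20. In all, 13 of 27 genes for poor nitrogen sources rose and 6 fell, the falls including ASP1, an asparaginase (-2.76), CHA1, a serine and threonine deaminase (-0.68), and DAL7 (-0.43). Methionine and sulfur genes had a fitted median of 0.037, but medians of -0.16 within the deletion and -0.47 within the wild type. Of 31 such genes, 8 rose and 15 fell, and at least 2-fold 2 rose and 12 fell. The falls were led by SAM1, a synthetase of S-adenosylmethionine (-3.63 ± 0.22), and MET28, a regulator, rose (2.75 ± 0.18). Arginine and lysine genes fell in 10 of 19 cases, a number that came to 6 with DESeq2. LYS4, homoaconitase of lysine synthesis, had 14.6 and 13.9 CPM at 15 min in the deletion and the wild type, against 308 and 334 CPM in glucose.

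Nucleotide synthesis held the lowest median of the lists described. Of 21 purine genes, 17 fell, with a median log2 change of -2.30. GUA1, GMP synthase, had 39.2 and 36.9 CPM at 15 min in the deletion and the wild type, against 777 and 731 CPM in glucose. IMD3, an IMP dehydrogenase, had 51.3 and 55.7 CPM at 15 min in the deletion and the wild type, against 1164 and 1149 CPM in glucose, and its near copy IMD4, which shares its span with another gene, fell by 4.89 log2 units. ADE17, of the last steps to IMP, fell by 3.60 log2 units, whereas its paralog ADE16 rose, with 304 and 312 CPM at 15 min in the deletion and the wild type, against 225 and 215 CPM in glucose, a call lost without the 15 min wild-type library. Of 21 pyrimidine and deoxynucleotide genes, 12 fell and 3 rose. URK1, uridine kinase, had 4.43 and 3.28 CPM at 15 min in the deletion and the wild type, against 154 and 153 CPM in glucose, and RNR1, the large subunit of ribonucleotide reductase, had 22.2 and 15.6 CPM at 15 min in the deletion and the wild type, against 477 and 482 CPM in glucose. DIF1, which moves the small subunits of the same enzyme into the nucleus, rose, with 434 and 338 CPM at 15 min in the deletion and the wild type, against 99.3 and 108 CPM in glucose. One-carbon and polyamine genes fell in 12 of 17 cases, led by MIS1, the mitochondrial folate enzyme (-4.28 ± 0.20). Permeases of bases fell as well: FCY2, the purine and cytosine permease, had 53.2 and 51.6 CPM at 15 min in the deletion and the wild type, against 1302 and 1446 CPM in glucose, FUI1, the uridine permease, changed by -4.08 ± 0.25, and FUR4, the uracil permease, by -3.58 ± 0.38.

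Lipid lists were mixed. Fatty acid synthesis fell in 9 of 15 cases. ELO3, an elongase of very long chains, had 38.6 and 35.2 CPM at 15 min in the deletion and the wild type, against 379 and 437 CPM in glucose, and OLE1, the desaturase, had 155 and 150.0 CPM at 15 min in the deletion and the wild type, against 485 and 649 CPM in glucose. ELO1, the elongase of medium chains, rose, with 121 and 438 CPM at 15 min in the deletion and the wild type, against 52.2 and 212 CPM in glucose; its levels differed more between the strains than between the conditions, and the call was lost without the genotype block. Ergosterol genes fell in 16 of 28 cases. ERG3, the sterol desaturase, had 746 and 54.9 CPM at 15 min in the deletion and the wild type, against 3198 and 626 CPM in glucose. ERG25, a C-4 methyl oxidase, had 476 and 77.9 CPM at 15 min in the deletion and the wild type, against 2075 and 451 CPM in glucose. For both genes the deletion at 15 min was above the wild type in glucose, so that the conditions overlapped unless compared within a strain. Without the genotype block the call on ERG3 was lost and 9 ergosterol genes fell. Among sphingolipid genes (11 higher and 6 lower of 25), YPK2, a kinase of that pathway, had 347 and 333 CPM at 15 min in the deletion and the wild type, against 27.7 and 27.3 CPM in glucose, and the ceramidases YDC1 and YPC1 rose by 2.31 ± 0.15 and 2.08 ± 0.16. Of 32 phospholipid genes 12 rose and 8 fell, with OPI3, a phosphatidylcholine methyltransferase, at 2.18 ± 0.19 and INO2, the activator of the pathway, at -2.10 ± 0.25.

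At the cell surface, wall genes fell in 31 of 57 cases and rose in 8. UTR2, a chitin transglycosylase, had 38.6 and 90.2 CPM at 15 min in the deletion and the wild type, against 649.8 and 704 CPM in glucose. GAS1, a glucan remodelling enzyme, had 135 and 188 CPM at 15 min in the deletion and the wild type, against 987 and 1192 CPM in glucose. PMA1, the proton pump of the plasma membrane, had 586 and 470.4 CPM at 15 min in the deletion and the wild type, against 2538 and 2069 CPM in glucose. These fell in both strains, whereas HSP30, a regulator of PMA1, rose, with 365 and 282 CPM at 15 min in the deletion and the wild type, against 27.2 and 28.8 CPM in glucose. Phosphate genes fell in 14 of 22 cases, with PHO3, an acid phosphatase, at -4.47 ± 0.22 and PHO84, the high-affinity transporter, which shares its span with another gene, at -3.27 ± 0.25. PHM8, which releases phosphate from nucleotides, rose, with 404 and 366 CPM at 15 min in the deletion and the wild type, against 54.4 and 35.8 CPM in glucose. Metal genes rose in 17 of 34 cases, with FIT2 and FIT3, mannoproteins of iron uptake, at 3.62 ± 0.24 and 3.65 ± 0.16 and CRS5, a metallothionein, at 3.20 ± 0.16. PDR15, a drug exporter, rose, with 203 and 165 CPM at 15 min in the deletion and the wild type, against 3.19 and 2.73 CPM in glucose, though 8 of 16 genes of its list fell (5 without the 15 min wild-type library). Amino acid and other permeases were split, 9 higher and 11 lower of 29, against 37.1% and 38.1% over all genes. Among them, AGP2, a permease that also carries carnitine, stood at 4.50 ± 0.19 and TPO4, a polyamine exporter, at 4.64 ± 0.22. Secretory genes were mostly near 0, 12 higher and 15 lower of 50, and the falls included SRP54 and SRP68 of the signal recognition particle (-1.14 ± 0.14 and -1.05 ± 0.13).

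Among genes of the transcription machinery, falls outnumbered rises in the list of RNA polymerase II. Of 42 genes for RNA polymerase II and general factors, 23 fell (median -0.43). The 4 largest falls were all subunits that RNA polymerases I, II and III have in common. RPB5 had 59.5 and 41.8 CPM at 15 min in the deletion and the wild type, against 301 and 283 CPM in glucose. RPC10 had 72.8 and 96.7 CPM at 15 min in the deletion and the wild type, against 424 and 439 CPM in glucose. RPB10 fell by 2.20 and RPB8 by 1.87 log2 units. TFA1, of the general factor TFIIE, which is not shared and lies in the uncertain region of chromosome XI, fell by 1.77 log2 units, and RAD3 of TFIIH fell by 1.27. Mediator and SAGA genes mostly did not pass, 22 of 39, and among those that rose were MED2, SSN2 and SSN8, the last of these the cyclin of the Mediator kinase module, with log2 changes of 1.15, 1.35 and 1.25. Chromatin genes were lower in 21 and higher in 14 of 61 cases, both below the shares over all genes (38.1% and 37.1%), and the number lower was 13 with DESeq2. FUN30, a remodeller, had 13.3 and 16.4 CPM at 15 min in the deletion and the wild type, against 167 and 154 CPM in glucose. SET1, the catalytic subunit of COMPASS, had 24.7 and 18.8 CPM at 15 min in the deletion and the wild type, against 87.3 and 99.8 CPM in glucose. GIS1, a JmjC protein that also activates stress and stationary phase genes, rose, with 251 and 235 CPM at 15 min in the deletion and the wild type, against 35.3 and 49.1 CPM in glucose. Histone genes rose in 8 of 10 cases with a median of 0.59, but in 4 to 5 cases when either wild-type library or the deletion's glucose library was left out, and the split between near-identical copies is uncertain.

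Genes of RNA decay moved in both directions. In the list of mRNA decay, 19 of 53 fell and 15 rose, shares no higher than over all genes (38.1% and 37.1%). MTR3 and RRP4, core subunits of the exosome, had log2 changes of -4.17 ± 0.22 and -3.68 ± 0.16, and CSL4, another, -2.23 ± 0.16. RAT1, the nuclear exonuclease of termination, had 52.5 and 39.3 CPM at 15 min in the deletion and the wild type, against 213 and 189.8 CPM in glucose. Those that rose included NGR1, an RNA-binding protein of growth (2.14 ± 0.15), and EDC2, an enhancer of decapping (1.93 ± 0.15). Splicing genes fell in 26 of 50 cases, or 17 with DESeq2. Nuclear transport fell in 38 of 50 cases. KAP123, the importer of ribosomal proteins, had 23.4 and 9.02 CPM at 15 min in the deletion and the wild type, against 307 and 311 CPM in glucose, and SXM1, a receptor of the same family, fell by 2.86 log2 units. GSP2 and POM33 rose against the list, by 4.35 ± 0.20 and 2.24 ± 0.13.

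Cell division genes fell. Of 52 replication genes 40 fell (median -1.0), of 51 mitosis genes 34 (median -0.73) and of 17 genes of Start and G1 9 (median -0.47). CLN2, a G1 cyclin, had 9.49 and 15.6 CPM at 15 min in the deletion and the wild type, against 151 and 245 CPM in glucose. CLB2, a mitotic cyclin, had 14.6 and 22.1 CPM at 15 min in the deletion and the wild type, against 90.5 and 113 CPM in glucose. POL1, the catalytic subunit of the primase-polymerase, had 19.0 and 12.3 CPM at 15 min in the deletion and the wild type, against 75.3 and 69.0 CPM in glucose. FKH1, a forkhead factor, changed by -3.27 ± 0.24 and MCD1, the cohesin subunit, by -2.27 ± 0.20. Against this run, SLD2, a factor that starts replication forks, rose, with 102 and 105 CPM at 15 min in the deletion and the wild type, against 18.9 and 23.0 CPM in glucose, and CDC15, a kinase of mitotic exit, rose by 1.27 ± 0.15. How many cells stood at each stage of the cycle was not measured in these libraries.

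Polarity genes had no common direction, 17 higher and 20 lower of 49, near the shares over all genes (37.1% and 38.1%). AXL2, which marks the axial bud site, fell (-2.08 ± 0.25), as did GIC2, an effector of Cdc42 (-2.05 ± 0.23), while SAC6, the actin bundler fimbrin, rose (1.80 ± 0.14), as did ARC15 of the Arp2/3 complex (1.68 ± 0.16). Mating genes fell in 12 of 22 cases, with STE12, the activator of the pathway, at -1.88 ± 0.22 and GPA1, its G protein, at -1.73 ± 0.14. RIM4, a regulator of meiosis that is silent in dividing cells, had 139.9 and 143 CPM at 15 min in the deletion and the wild type, against 4.17 and 5.84 CPM in glucose. That was the largest rise of the 16 tested meiosis genes, of 55 listed. In the list of MAP kinases and calcium, 19 of 37 rose and 10 fell. GPD1, the glycerol-3-phosphate dehydrogenase of osmotic stress, had 2154 and 2101 CPM at 15 min in the deletion and the wild type, against 165 and 151 CPM in glucose, CMK1, a calmodulin kinase, rose by 3.58 ± 0.16, and SHO1, an osmosensor, fell by 1.88 log2 units. Vitamin and cofactor genes were split, 17 higher and 15 lower of 44, also near the shares over all genes.

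Pairs of related genes passed both in the same direction and in opposite ones, and how often unrelated genes would do so was not tested. Of 96 pairs of related genes listed, 85 had both members tested. In 29 of these the members passed in opposite directions, in 24 both rose, in 13 both fell, in 16 only 1 member passed and in 3 neither did. Over all genes 37.1% rose and 38.1% fell. CIT1, paired with CIT2 and with CIT3, is counted in more than 1 of the pairs that rose. In 24 of the 29 opposite pairs the gene that rose was the one listed as used when glucose is scarce, a listing made with earlier results of these data known. The gap between the members was at least 2-fold in 59 pairs and at least 8-fold in 31, with a median of 2.11 log2 units. In 18 of the 29 pairs both calls held under every alternative tried, and in 11 at least 1 call was lost under some alternative.

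The widest gap was that of PGM2 and PGM1, 8.12 log2 units, followed by the repressors DOT6 and TOD6. PGM2, the main phosphoglucomutase, needed for galactose and glycogen, had 2513 and 2370.2 CPM at 15 min in the deletion and the wild type, against 15.7 and 14 CPM in glucose. PGM1, its paralog, had 54.4 and 49.2 CPM at 15 min in the deletion and the wild type, against 88.0 and 89.6 CPM in glucose. Per base of gene length, the share of PGM2 in the pair was 97.9% and 98.0% at 15 min in the deletion and the wild type, against 15.2% and 13.6% in glucose. SOL3, the paralog of SOL4, had 254 and 205 CPM at 15 min in the deletion and the wild type, against 376 and 346 CPM in glucose. HXK1 and HXK2, the hexokinase of glucose-grown cells, both rose, and the share of HXK1 in their length-scaled counts was 78.2% and 79.8% at 15 min in the deletion and the wild type, against 3.53% and 2.78% in glucose. PYK2, a minor pyruvate kinase, rose by 4.45 log2 units while CDC19, the main one, did not pass. MPC3 likewise rose while MPC2, its paralog in fermenting cells, did not pass. Enolase ENO1 rose by 3.09 ± 0.23, and ENO2 had 2399 and 2287 CPM at 15 min in the deletion and the wild type, against 3816 and 3202 CPM in glucose, a fall whose call was lost in 3 of the 4 fits without 1 library.

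Among pairs of signalling and regulatory genes, some passed in opposite directions, while CMK1 and CMK2, YPK2 and YPK1, PPH21 and PPH22, IGO2 and IGO1, SNF3 and RGT2, and MSN4 (in the uncertain region of chromosome XI) and MSN2 rose together. RAS2 had 809.5 and 825 CPM at 15 min in the deletion and the wild type, against 265 and 219.8 CPM in glucose. RAS1 had 39.2 and 50.0 CPM at 15 min in the deletion and the wild type, against 207 and 296 CPM in glucose. The phosphodiesterases that end the cAMP signal also had opposite calls, with PDE1 at 1.55 ± 0.13 and PDE2 at -1.30 ± 0.14. MTH1 had 468 and 357 CPM at 15 min in the deletion and the wild type, against 10.8 and 9.74 CPM in glucose, whereas STD1, its paralog, had 79.7 and 41.0 CPM at 15 min in the deletion and the wild type, against 141 and 182 CPM in glucose. DOT6, the paralog of TOD6, rose by 0.85 ± 0.13, which set the members of that repressor pair 7.79 log2 units apart. GSP2, a second gene for the GTPase Ran, had 635 and 643 CPM at 15 min in the deletion and the wild type, against 39.2 and 23.8 CPM in glucose, and GSP1, the main one, had 301 and 218 CPM at 15 min in the deletion and the wild type, against 1063 and 972 CPM in glucose. Per base of gene length, as for PGM2, the share of GSP2 in the pair was 67.7% and 74.6% at 15 min in the deletion and the wild type, against 3.54% and 2.38% in glucose.

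Among enzymes and chaperones, the pairs with opposite calls included SSA4 and SSA2 (4.36 and -1.32), SSE2 and SSE1 of the Hsp110 family (3.52 and -1.12), ARO9 and ARO8 (3.50 and -0.92), GND2 and GND1 of the pentose phosphate pathway (3.22 and -0.87), BAT2 and BAT1 (1.60 and -1.89), GPP2 and GPP1 of glycerol synthesis (1.95 and -1.36) and GRS2 and GRS1 (1.09 and -1.92), each as fitted log2 changes. Over all 29 opposite pairs, the member that rose had the lower level per base of gene length in glucose in both strains in 26, in 1 strain in 2 (RAS2 and RAS1, LEU9 and LEU4) and in neither in 1 (DBF20 and DBF2). The same glucose counts enter the changes by which these pairs were picked, so this tally is partly built in. No such tally was made for the other tested pairs. LEU9 and LEU4 went against the order in which they were listed, at -4.59 and 0.71, as did NRG2 and NRG1, glucose repressors, at -0.94 and 1.92, though the call on NRG2 was lost without the genotype block. Pairs that fell together included CLN1 and CLN2, CLB1 and CLB2, FKH1 and FKH2, and SAM1 and SAM2. Pairs that rose together included CIT1 and CIT2, PYC1 and PYC2, and COX5A and COX5B.

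**Figure D5:**
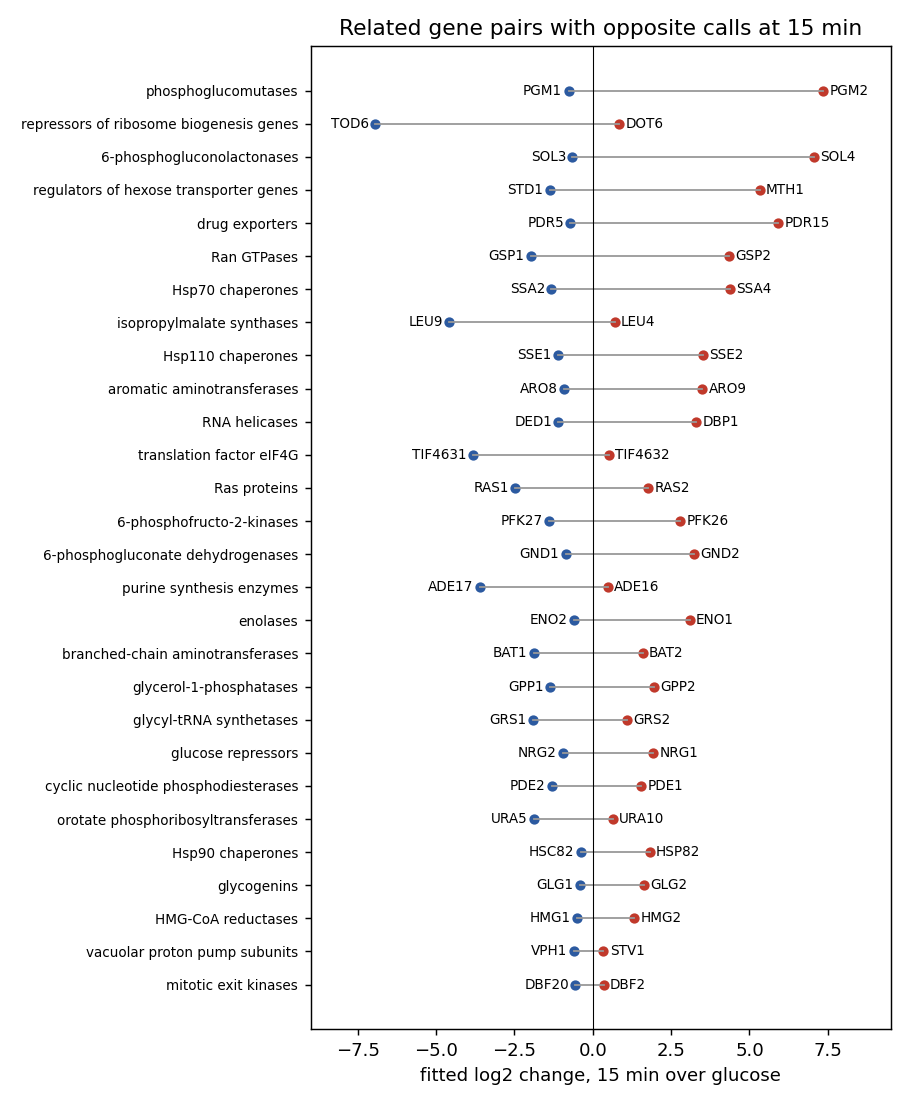
Fitted log2 change (15 min over glucose, horizontal axis) of the members of 28 of the 29 related gene pairs with opposite calls, ordered by the gap between them, the member that rose in red and the member that fell in blue. The widest gap is 8.12 log2 units (PGM2 and PGM1) and the narrowest, at the bottom, belongs to the mitotic exit kinases DBF2 and DBF20.

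Divergent neighbours had the highest share of pairs that moved the same way. Outside the set-aside lists, 514 of 960 divergent neighbour pairs had both genes called, and in 335 of them (65.2%) the genes moved the same way. Of 949 called tandem pairs 530 (55.8%) and of 549 called convergent pairs 273 (49.7%) did so. The Spearman correlation of the changes was 0.28 over divergent, 0.11 over tandem and -0.0037 over convergent pairs, given as descriptions across genes, with divergent neighbours sharing an upstream region and reads assigned by a strand rule that is not given. SRO9 and GFD2, 347 bases apart on chromosome III, fell together, SDH6 and ARO10, 700 bases apart on chromosome IV, rose together, and so did LSP1 and ULA1, 362 bases apart on chromosome XVI (log2 changes of 3.96 and 3.45). RRP4 and TRM5 (-3.68 and -3.69) and SHQ1 and DPH1 (-3.63 and -4.28) fell in pairs on chromosomes VIII and IX.

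Gene length had little relation to the change. Outside the set-aside lists the Spearman correlation of the fitted change with length was -0.098 over 4677 genes. The median change was 0.35 for 524 genes of up to 500 bases and -0.10 for 374 genes longer than 3000 bases.

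Differences between the strains in this response were few, and with 1 library per strain and condition they carry no test. Of 4961 genes with at least 50 counts in a library of each strain, 107 differed by at least 2-fold in their change, 74 with the higher change in the deletion and 33 with the higher in the wild type. RSA4 (5 and 0 counts at 15 min in the deletion and the wild type, against 981 and 534 counts in glucose), NOC3 (13 and 2 counts at 15 min in the deletion and the wild type, against 811 and 521 counts in glucose), ARX1 (13 and 2 counts at 15 min in the deletion and the wild type, against 1476 and 930 counts in glucose) and PWP2 (36 and 8 counts at 15 min in the deletion and the wild type, against 1303 and 893 counts in glucose), all of ribosome assembly, together with PRP43, had the 5 highest differences. All of them fell in both strains and the wild type at 15 min held 8 counts or fewer, so their differences rest on few reads. The change of PWP2, for example, was -3.75 in the deletion and -5.53 in the wild type, with a prior count of 2. The exact 95% counting intervals, taken without that prior, were -4.33 to -3.33 and -6.95 to -4.75.

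At the other end were TIS11, YOX1, ARG1, YCS4 and AQY2. TIS11, an mRNA decay factor of iron shortage, had 158 and 238 CPM at 15 min in the deletion and the wild type, against 127 and 53.8 CPM in glucose, and its call over both strains was lost with DESeq2 and with limma. ARG1, of arginine synthesis, had 10.1 and 7.38 CPM at 15 min in the deletion and the wild type, against 109 and 23.4 CPM in glucose. For TIS11 and ARG1 the strains already differed in glucose, where the deletion was higher. YOX1, a repressor of the cell cycle, had 6 and 24 counts at 15 min in the deletion and the wild type, against 489 and 386 counts in glucose, YCS4, a condensin subunit, 11 and 30 counts at 15 min in the deletion and the wild type, against 250 and 151 counts in glucose, and AQY2, an aquaporin that shares its span with another gene, 4 and 11 counts at 15 min in the deletion and the wild type, against 130 and 55 counts in glucose.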

How the data were processed

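The authors deposited 1 table of raw read counts, whole numbers with 1 column per library. Bowtie and sacCer3 are named per the submitters' processing notes. For the counting tool, its strand setting and the annotation, the sources used here give nothing. Of 5219 identifiers, 5116 were found in RefSeq's gene table of the R64 assembly, which gave names and positions. Some genes are not reported here.

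Genes with a mean count of at least 10 over the 6 libraries were tested with edgeR 4.0.16 (quasi-likelihood, TMM factors) in R 4.3.3, with condition (3 levels) and strain as terms and all 6 libraries in the fit. This left 2 residual degrees of freedom per gene, and edgeR also borrows from the other genes to estimate the spread. A gene passed at an adjusted p of at most 0.05 (Benjamini-Hochberg, over every gene tested). The 60 min libraries entered only to estimate the spread and the strain term. Changes within a strain were differences of log2 CPM with a prior count of 2, and carry no p. Exact counting intervals of such changes were taken from the counts without that prior. The fit was tested on simulated data. Alternatives were limma 3.58.1, DESeq2 1.42.0, other scalings, filters and thresholds, the 4 libraries alone, no genotype block, and each library left out; 2 more were added after seeing the data, one leaving out the stretch of chromosome XI marked as uncertain, whose left edge was taken from earlier work on these counts, and one with libraries thinned to 1162190 counts. Figures used matplotlib 3.10.9 in Python 3.11.15.

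The comparison, 65 gene lists and 96 gene pairs were chosen with earlier results of these data known, and 2 aliases that pointed to other genes were taken out of lists after values were seen. Named genes were the 15 largest rises and falls that passed with at least 2-fold change in both strains outside 5 lists set aside, up to 4 members of each other list by size of change and up to 2 that went against it, pairs with opposite calls, the 5 largest strain differences each way, and the 10 largest gains and losses in share of counts; TDH3, ZWF1, TFA1, RAD3, GDH1, GCV1, GCV2, ASP1, CHA1, DAL7, members of other pairs and divergent neighbours were named after their values were seen. Promoter and protein sequences were not used here, so planned motif and identity descriptions were not made.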

Additional observations from a re-analysis of the deposited data

How the results depend on the processing

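Genes that passed numbered 3362 (DESeq2) to 3976 (the 4 libraries alone) under the alternatives, against 3900, and 3455 to 3534 when 1 library was left out; none was called in the opposite direction in any of the fits. The share of calls that were rises lay between 46.4% (library totals) and 50.0% (library medians), against 49.4%. Of 382 named genes, 29 lost their call under at least 1 alternative and none changed direction. With DESeq2 the genes that fell numbered 6 in arginine and lysine synthesis, 13 in chromatin and 17 in splicing, and without the genotype block 9 ergosterol genes fell. Leaving out 1 library gave 9 to 14 rises among Hsf1 chaperones, 4 to 6 falls among membrane pumps (7 with all libraries), 5 to 8 falls among multidrug transporters and 4 to 6 rises among histones (8 with all libraries). The mean log2 ratio of shares was also taken without each library's own 10 most counted genes, removed from the lists as well as from the total. The members left in a list could thus differ between libraries. The ratio was then -2.58 for ribosome lists, 3.60 for stress and storage and -1.67 for translation factors and tRNA enzymes. For glycolysis it was 1.36 and for amino acids -0.44. The planned promoter motif counts were not run. The labels carry no replicate numbers, so cultures could not be paired. The strain served as the block, which makes the main fit a comparison within strains. Without the block 3685 genes passed. The 15 min libraries hold fewer counts than the glucose libraries, which limits the precision of genes that fell to a few counts; intervals cover counting error only. The spread rests on 2 residual degrees of freedom, and the fits that leave out 1 library assume that a lone sample varies like the others.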
